A study of Mus musculus with 8 samples.

Results

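The 10 genes described here are the Krüppel-like factors Klf2, Klf3, Klf4, Klf6, Klf7, Klf9, Klf10, Klf11, Klf12 and Klf13. They were chosen by symbol, without regard to case, from the 27179 genes of the expression table. All 10 were present and 9 of them reached the level required for testing, a mean of 0.5 RPKM (reads per kilobase of transcript, scaled to the reads counted in the library) over all libraries. Klf12 did not.

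RNA sequencing was performed on CD4+ T cells from the spleen of 8-week-old mice of the strain C.Cg-Foxp3tm2Tch/J. The Foxp3 reporter allele of this strain was carried by all groups, so that no group was free of it. Parents drank water with 10 ppm Cd, given as CdCl2, or water without added Cd, before mating and through gestation. The water was replaced after birth, and the offspring are called Cd offspring and control offspring. Cells were harvested without stimulation (0 hours) or after 16 hours with beads carrying anti-CD3 and anti-CD28 antibodies, which engage the T cell receptor and its costimulatory receptor. There were 2 libraries for each of the 4 groups, numbered 6 and 7 in the labels. Cells were enriched by negative selection and then sorted. The study describes the sequenced control cells as CD4+CD25- conventional T cells. The study treated each litter as a biological replicate. The labels do not say whether the libraries of a group came from separate litters or animals. The p-values rest on the spread between these libraries, moderated by that of all genes tested, and this spread may be technical.

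Krüppel-like factors are transcription factors with zinc fingers at the C terminus that recognise CACCC elements and related GC-rich DNA. The fingers are much alike across the family, whereas the N-terminal parts differ and recruit different partners. Klf2, Klf4, Klf6 and Klf7 are mostly described as activators, Klf3 and Klf12 bind the corepressor CtBP, and Klf9, Klf10, Klf11 and Klf13 bind the corepressor Sin3A. In T cells Klf2 is best known. It is abundant in naive cells, helps to keep them quiescent, drives the genes for the egress receptor S1pr1 and the integrin chain Itgb7, and is lost when the T cell receptor is engaged. Klf4 also restrains T cell proliferation, Klf10 and Klf11 are induced by TGF-beta, and Klf13 is known in late-activated T cells as an activator of the chemokine gene Ccl5.

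The genes lie on 10 different chromosomes and are not a genomic cluster. On GRCm38.p6 (RefSeq), Klf2 (gene ID 16598) is at chr8:72319062-72321654, Klf4 (16600) at chr4:55527137-55532475, Klf6 (23849) at chr13:5861489-5870393 and Klf7 (93691) at chr1:64029448-64122345. Klf3 (16599) is at chr5:64803521-64832901 and Klf12 (16597) at chr14:99866181-100285891. Klf9 (16601) is at chr19:23141226-23168129, Klf10 (21847) at chr15:38291464-38300711, Klf11 (194655) at chr12:24651371-24662782 and Klf13 (50794) at chr7:63886351-63938915. All are protein-coding. The counts cover the exons of the whole gene. The use of strand in counting was not given in the sources used here. The span of Klf13 holds E030018B13Rik, which GENCODE places on the opposite strand and which stood between 4.75 and 31.3 RPKM, and the span of Klf9 holds Mir1192. Reads of these genes and of Klf13 or Klf9 may be shared where exons coincide.

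RefSeq promoters were matched for 9 of the 10 genes, all but Klf10. For 7 of them the start used is the outer end of the gene span given above, whereas those of Klf7 and Klf12 are internal starts, 956 and 136095 bases inside the span. The 250 bases before each start were searched on both strands for CACCC, for the GC box GGGCGG, for CCAAT, for the FOXO element TGTTTAC, for the cAMP response element TGACGTCA, and by name for the MEF2 box and the CArG box. The sequences of 4 promoters are shown as examples, each for the matches named with it below. They are printed from 5′ to 3′ on the strand of the gene, with every match of these motifs, on either strand, in capitals. Klf2, at chr8:72318812-72319061 on the plus strand, is the gene with a MEF2 box. Klf3, at chr5:64803271-64803520 on the plus strand, has the most CACCC and GC box matches. Klf6, at chr13:5861239-5861488 on the plus strand, has the most CCAAT matches. Klf9, at chr19:23140976-23141225 on the plus strand, has the FOXO element.
Klf2: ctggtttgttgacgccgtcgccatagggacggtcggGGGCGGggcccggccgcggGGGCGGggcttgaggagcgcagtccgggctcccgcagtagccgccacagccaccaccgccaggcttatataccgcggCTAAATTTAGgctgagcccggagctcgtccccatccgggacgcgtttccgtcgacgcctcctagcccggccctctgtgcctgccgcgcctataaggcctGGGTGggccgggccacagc
Klf3: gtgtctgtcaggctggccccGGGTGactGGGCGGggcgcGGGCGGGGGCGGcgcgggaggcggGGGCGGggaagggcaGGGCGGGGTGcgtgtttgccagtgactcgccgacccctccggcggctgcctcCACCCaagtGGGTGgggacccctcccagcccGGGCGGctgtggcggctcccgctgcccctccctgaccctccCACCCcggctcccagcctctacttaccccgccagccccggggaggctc
Klf6: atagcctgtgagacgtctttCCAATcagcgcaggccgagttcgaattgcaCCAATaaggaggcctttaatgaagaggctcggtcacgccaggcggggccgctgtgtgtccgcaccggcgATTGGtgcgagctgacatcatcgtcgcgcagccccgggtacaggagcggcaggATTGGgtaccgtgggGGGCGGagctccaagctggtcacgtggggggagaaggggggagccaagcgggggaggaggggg
Klf9: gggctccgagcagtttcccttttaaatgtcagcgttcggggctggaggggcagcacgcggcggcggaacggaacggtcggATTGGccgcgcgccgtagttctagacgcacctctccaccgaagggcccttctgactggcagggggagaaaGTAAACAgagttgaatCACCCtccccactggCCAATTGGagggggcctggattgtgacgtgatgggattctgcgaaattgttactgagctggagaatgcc

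CACCC was found in 6 of the 9 promoters and in 52.0% of all 32817 RefSeq promoters of the same length. The GC box was found in 7 of 9, in all but Klf9 and Klf12, and in 32.7% of all promoters. CCAAT was found in 4 of 9 (Klf6, Klf9, Klf11 and Klf13) and in 33.8% of all. Klf3 held 5 CACCC and 6 GC box matches, which overlap in part, and Klf6 held 4 CCAAT matches. The MEF2 box of Klf2 lay 118 to 109 bases before the start, and 0.509% of all promoters held such a box. The FOXO element of Klf9 lay 100 to 94 bases before the start on the opposite strand, and 3.16% of all promoters held one. Neither the cAMP response element nor the CArG box was found in any of the 9 windows, against 1.55% and 1.47% of all promoters. The windows were mostly rich in G and C, from 48.0% in Klf12 to 78.4% in Klf3, with a median of 52.4% over all promoters. These matches describe the letters in the windows and were not tested for binding.

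Library depth was 15542732 to 25486791 reads counted in genes, and replicate libraries of a group correlated over the tested genes with Pearson's r from 0.983 to 0.990. Stimulation was visible in genes that mark activation: 5 of 6 (Il2, Il2ra, Cd69, Tfrc and Irf4) were higher after 16 hours in both exposures, and Mki67 was not called. Mki67 was at 0.307 to 1.09 RPKM and lower in the stimulated libraries, without overlap. Its log2 fold change was -0.94 (limma, adjusted p = 0.0304) in control and -1.02 (adjusted p = 0.0222) in Cd offspring. All 7 CD4 T cell markers were expressed in every library, and the estimates of all 7 were below 0 after stimulation in control offspring, with a median log2 fold change of -0.57 and libraries that did not overlap. Of these, Cd3g passed the thresholds given below, at -1.16 (adjusted p = 2.95e-06) in control offspring, and had -0.97 (adjusted p = 7.26e-06) in Cd offspring, under 2-fold. Cd3d had -0.75 (adjusted p = 8.60e-06) and Cd4 -0.53 (adjusted p = 3.55e-05) in control offspring. Among markers of other cells, 4 of 5 B cell, 5 of 6 myeloid, 2 of 4 CD8 and NK, and 3 of 4 erythroid genes remained under 1 RPKM in all libraries, with Ms4a1, S100a8, S100a9, Cd14 and Hba-a1 at 0. Itgam and Klrb1c, in contrast, were above 1 RPKM in all unstimulated libraries and under 0.5 RPKM in all stimulated ones. Other markers did not fall. Cd8b1 was at 9.40 to 11.7 RPKM over all libraries, with log2 fold changes of 0.13 in control and 0.14 in Cd offspring. Cd79a was at 2.87 to 4.73 RPKM, with 0.41 and 0.57, and Alas2 at 0.365 to 1.72 RPKM, with 0.86 and 0.03. Summed myeloid markers ranged from 1.87 to 2.03 RPKM without stimulation and from 0.380 to 0.582 RPKM with it, and summed B cell markers from 3.12 to 3.76 and from 4.19 to 4.89 RPKM. The sums were 12.9 to 15.1 and 10.5 to 12.1 RPKM for CD8 and NK markers, and 0.365 to 1.72 and 1.04 to 1.38 RPKM for erythroid markers. Of 4 regulatory T cell markers, Il2ra, also among the activation genes above, and Ctla4 rose in both exposures, and Foxp3 and Ikzf2 were not called. Foxp3 had 0.41 (limma, adjusted p = 0.0137) in control and 0.68 (adjusted p = 0.0011) in Cd offspring, under 2-fold and without overlap of libraries. Ikzf2 had 0.35 and 0.18, with overlap. The part of all these markers of other cells in the results below is taken up next. For none of them was a part in the results below tested. In bulk RNA, fewer cells that express a gene and less of its RNA per cell cannot be told apart. RPKM is also relative to all reads counted in the library, so a lower value need not mean less RNA per cell.

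**Figure D1:**
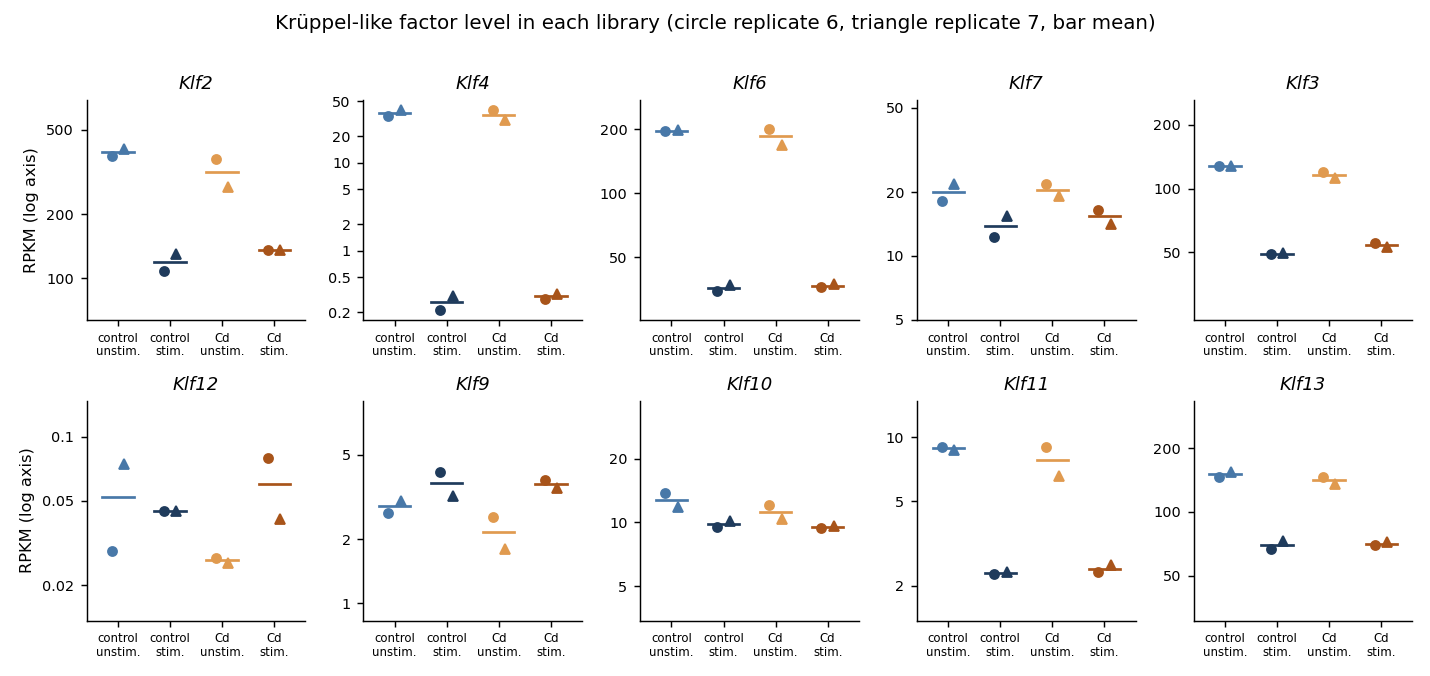
RPKM of each of the 10 genes (log axis, a separate range for each panel) in the 8 libraries, with a circle for replicate 6, a triangle for replicate 7 and a bar for the mean of each group. The stimulated libraries lie below the unstimulated ones for Klf2, Klf3, Klf4, Klf6, Klf7, Klf10, Klf11 and Klf13 in both exposures, and above them for Klf9; Klf12 rests on 3 to 10 reads in each library.

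In unstimulated T cells the family was led by Klf2. Levels in RPKM, which allow for gene length, were 392 ± 19.7 (SD, n = 2) for Klf2 in control offspring, followed by Klf6 with 197 ± 1.65, Klf13 with 150.2 ± 5.05 and Klf3 with 128 ± 0.362. Klf4 had 36.6 ± 3.47, Klf7 20.0 ± 2.74, Klf10 12.8 ± 1.36, Klf11 8.88 ± 0.201 and Klf9 2.86 ± 0.262 RPKM. The order was the same in unstimulated cells of Cd offspring, and in each of the 4 groups the libraries of neighbours in the order did not overlap. With 2 libraries this separation is a description. Klf12 was at the bottom throughout, between 0.0254 and 0.0792 RPKM, which correspond to 3 to 10 reads. It was under the level required for testing, so differences between groups were not tested for it.

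After stimulation the order changed in the same way in both exposures. Klf2 stayed first with 119 ± 15.7 RPKM in control and 136 ± 0.0892 RPKM in Cd offspring. Klf6 moved from the second to the fourth place, behind Klf13 and Klf3, and Klf4 moved from the fifth to the ninth. Klf9, the lowest of the tested genes without stimulation, then stood above Klf11 and Klf4. The plot of levels by library has a separate range for each panel, so the order is read from the axis values. The summed level of the 10 genes was 926 and 970 RPKM in unstimulated control libraries and 287 and 321 RPKM in stimulated ones, and in Cd offspring 918 and 754 RPKM without and 330 and 329 RPKM with stimulation. Klf2 made up 35.6 to 41.8% of this sum in all 8 libraries. The share of Klf6 was 20.4 to 22.5% without and 10.9 to 12.0% with stimulation, and that of Klf13 15.8 to 18.0% and 21.1 to 23.3%.

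The comparison of stimulated with unstimulated cells asks which of these factors differ after 16 hours with the beads. No cells were cultured for 16 hours without beads, so stimulation and time in culture cannot be told apart. By the rule below, 7 of 12 immediate early genes were also lower and 2 higher in control offspring. Quiescence of the cells at 0 hours was not tested. Of the 9 genes tested in control offspring, 6 were lower after 16 hours (Klf2, Klf3, Klf4, Klf6, Klf11 and Klf13) and 0 were higher, at an adjusted p under 0.01 and a change of more than 2-fold (limma, Benjamini-Hochberg over 12605 genes). Over all genes tested, 7.17% were lower and 11.5% higher by the same rule. The median log2 fold change was -1.37 over the 9 genes and 0.07 over all genes. At an unadjusted p under 0.05, 8 of the 9 genes passed and Klf9 did not, where 67.8% of all genes passed. In Cd offspring 5 of the 9 were lower (Klf2, Klf3, Klf4, Klf6 and Klf11) and 0 higher, where 7.24% of all genes were lower and 11.4% higher, with medians of -1.09 and 0.05. All 9 genes had stimulated and unstimulated libraries that did not overlap in both exposures, as did 73.3% of all genes tested.

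Among the activators, Klf4 had the largest change of the family. Its RPKM was 34.2 and 39.1 in the unstimulated control libraries and 0.211 and 0.304 in the stimulated ones, from 1870 and 1938 reads against 10 and 18 reads. Cd offspring had 39.5 and 30.4 RPKM without and 0.284 and 0.322 RPKM with stimulation, the latter from 19 and 25 reads. Every stimulated library thus held Klf4 at under 1 RPKM and every unstimulated one at over 30 RPKM. On the scale of log2(RPKM + 0.1), Klf4 had a log2 fold change of -6.69 (SE 0.18, adjusted p = 2.83e-07) in control and of -6.43 (SE 0.18, adjusted p = 3.37e-07) in Cd offspring. The pseudocount understates a change to so low a level: the ratio of the mean RPKM was 142-fold in control and 115-fold in Cd offspring, and with a pseudocount of 1 the log2 change was -4.90 in control and -4.77 in Cd offspring.

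Klf6, a widely expressed factor that many stimuli induce as an early gene, came second. It was at 196 and 198 RPKM in unstimulated and 34.5 and 37.0 RPKM in stimulated control libraries. In Cd offspring it was at 201 and 170 RPKM without and 35.9 and 37.1 RPKM with stimulation. The stimulated libraries of both exposures lay within 3 RPKM of each other, far below all the unstimulated ones. The log2 fold change was -2.46 (95% interval -2.65 to -2.27, adjusted p = 5.11e-07) in control and -2.34 (-2.53 to -2.15, adjusted p = 6.78e-07) in Cd offspring.

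Klf2, the quiescence factor that drives S1pr1, stayed abundant although it was lower. Control libraries held 378 and 406 RPKM without stimulation and 108 and 130 RPKM with it. Cd libraries held 366 and 268 RPKM without and 136 and 136 RPKM with stimulation. The lowest unstimulated library, replicate 7 of the Cd offspring, was still above every stimulated library. Klf2 fell by 1.72 on the log2 scale (SE 0.15, adjusted p = 3.14e-05) in control and by 1.20 (SE 0.15, adjusted p = 2.16e-04) in Cd offspring. Without replicate 6 of the unstimulated Cd libraries the change in Cd offspring was -0.98 (adjusted p = 4.02e-04), under 2-fold and no longer called.

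Klf7, known for its role in the outgrowth of neurons, had the smallest difference among the activators. It was at 18.1 and 22.0 RPKM in unstimulated and 12.4 and 15.4 RPKM in stimulated control libraries, and at 21.7 and 19.3 against 16.5 and 14.2 RPKM in Cd offspring. The groups did not overlap, but the highest stimulated library came within 3 RPKM of the lowest unstimulated one. The log2 fold changes of -0.53 (adjusted p = 0.0123) and -0.41 (adjusted p = 0.0324) did not pass the thresholds.

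Of the factors that bind CtBP, Klf3 was lower in both exposures and had the smallest standard error of the 9 genes. Unstimulated control libraries held 128 and 127 RPKM and stimulated ones 49.2 and 49.5 RPKM. Cd offspring had 119 and 112 RPKM without and 55.7 and 53.2 RPKM with stimulation. Both Cd libraries thus lay between the 2 control groups in either state. Klf3 fell by 1.37 on the log2 scale (SE 0.05, adjusted p = 6.41e-07) in control and by 1.09 (SE 0.05, adjusted p = 1.63e-06) in Cd offspring. Klf3 is itself a known target of other family members, and the promoter printed above holds CACCC on both strands. CACCC was also found in 52.0% of all promoters, and a relation of these matches to the level of Klf3 was not tested.

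Of the factors that bind Sin3A, Klf11 and Klf13 were lower and Klf9 and Klf10 were not called. Klf11 was at 9.02 and 8.74 RPKM in unstimulated and 2.26 and 2.31 RPKM in stimulated control libraries, and at 9.04 and 6.62 against 2.33 and 2.49 RPKM in Cd offspring. It fell by 1.91 on the log2 scale (SE 0.15, adjusted p = 1.93e-05) in control and by 1.64 (SE 0.15, adjusted p = 4.32e-05) in Cd offspring. The stimulated libraries of both exposures spanned less than 1 RPKM.

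Klf13 was at 147 and 154 RPKM in unstimulated and 67.0 and 73.1 RPKM in stimulated control libraries. In Cd offspring it was at 146 and 135 RPKM without and 69.7 and 72.1 RPKM with stimulation. Its stimulated level was the second of the family. The log2 fold change was -1.10 (SE 0.063, adjusted p = 4.36e-06) in control and -0.99 (SE 0.063, adjusted p = 7.57e-06) in Cd offspring. The latter passed on p and missed the 2-fold limit by its size alone, and leaving out replicate 7 of the unstimulated or of the stimulated Cd libraries moved it past the limit, to -1.05 and -1.01.

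Klf10, a TGF-beta-inducible factor, was at 13.8 and 11.8 RPKM in unstimulated and 9.53 and 10.1 RPKM in stimulated control libraries, with 12.1 and 10.4 against 9.39 and 9.60 RPKM in Cd offspring. The stimulated libraries were the lower ones in both exposures, by a log2 fold change of -0.37 (adjusted p = 0.0132) and -0.24 (adjusted p = 0.0736). Klf9, a factor induced by glucocorticoid and thyroid hormone, was the one tested member with higher values after stimulation. It was at 2.68 and 3.05 RPKM in unstimulated and 4.14 and 3.20 RPKM in stimulated control libraries, and at 2.54 and 1.81 against 3.79 and 3.48 RPKM in Cd offspring. The log2 fold changes of 0.34 (95% interval -0.11 to 0.79, adjusted p = 0.160) and 0.73 (0.28 to 1.19, adjusted p = 0.0116) did not pass the threshold.

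**Figure D2:**
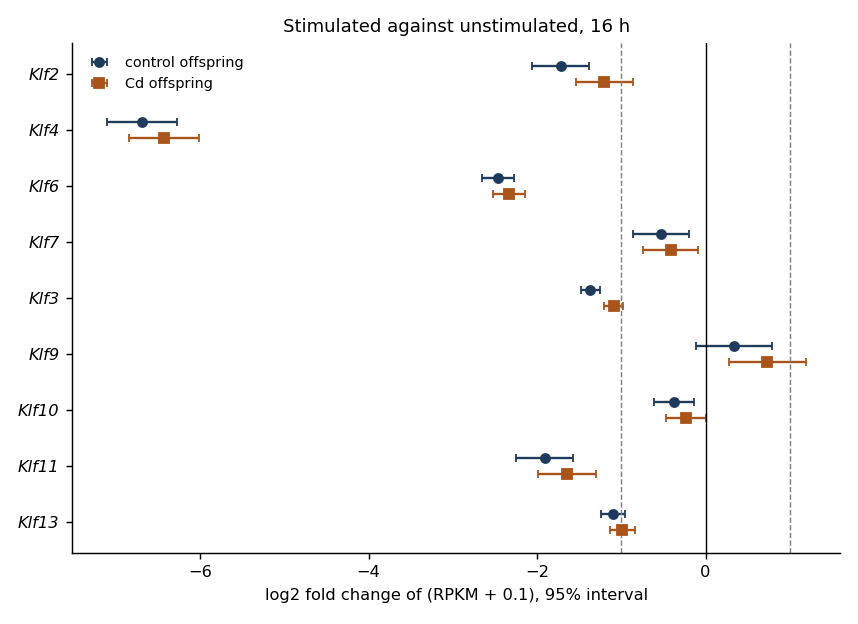
Log2 fold change of RPKM + 0.1 after 16 h of stimulation for the 9 tested genes, with circles for control offspring, squares for Cd offspring, 95% intervals from limma and dashed lines at a 2-fold change. Klf4 stands apart at -6.69 and -6.43, Klf6 follows at -2.46 and -2.34, and Klf9 is the one gene on the right of 0.

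Few other family genes were called. The expression table held 26 Klf and Sp genes, the 10 members included, and 15 of the others were examined. Of these 15, 7 were tested, and 0 were called in control offspring. Klf16 (24.3 and 24.8 RPKM unstimulated, 25.2 and 25.7 RPKM stimulated in control offspring) and Sp1 (43.4 and 46.0 against 48.9 and 49.5 RPKM), both broadly expressed regulators, were among them. Sp2 (-0.70, adjusted p = 2.0e-04), Sp4 (-0.84, adjusted p = 1.60e-04) and Sp6 (-0.87, adjusted p = 0.00106) had log2 fold changes below 0 in control offspring that were under 2-fold, with libraries that did not overlap. In Cd offspring 1 of the 7 was called, Sp6, which was lower by 1.11 on the log2 scale (adjusted p = 2.96e-04), and the difference between exposures did not pass its own test (adjusted p = 0.682). The median of the 7 was -0.10 in control and -0.33 in Cd offspring. No test compared these genes with the 9 above.

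Genes placed upstream of Klf2 in the literature include Foxo1, which activates its promoter, the kinases Map2k5 and Mapk7 with their target factors Mef2a, Mef2c and Mef2d, and the ubiquitin ligases Smurf1, Wwp1 and Fbxw7. Of these 10 genes with Foxo3, 9 were tested and 1 was called, Foxo1. It was at 136 and 136 RPKM in unstimulated and 43.1 and 44.1 RPKM in stimulated control libraries, and at 137 and 134 against 44.7 and 44.7 RPKM in Cd offspring. Foxo1 had a log2 fold change of -1.64 (SE 0.041, adjusted p = 2.49e-07) in control and of -1.60 (SE 0.041, adjusted p = 2.97e-07) in Cd offspring. Mef2d, whose family binds the MEF2 box printed above, had a log2 fold change of -0.44 in control offspring (adjusted p = 0.00303) and was under 2-fold, and Fbxw7 had 0.60 (adjusted p = 3.12e-04), also under 2-fold. Mef2c was the gene not tested, with at most 0.03 RPKM.

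None of the corepressors was called. Of 7 genes (Ctbp1, Ctbp2, Sin3a, Sin3b, Hdac1, Hdac2 and Hdac3), 0 were called in either exposure, and their median log2 fold change was 0.19 in control and 0.15 in Cd offspring. Ctbp1, at 86.1 to 94.4 RPKM in all libraries, had a log2 fold change of -0.08 (95% interval -0.20 to 0.03) in control offspring. Hdac2, a histone deacetylase of the Sin3 complex, was at 40.3 and 40.7 RPKM in unstimulated and 72.3 and 66.3 RPKM in stimulated control libraries, and its log2 fold change of 0.77 (adjusted p = 8.30e-05) was under 2-fold. Hdac3 had 0.49 (adjusted p = 0.00152) and Sin3a 0.31 (adjusted p = 8.60e-04), likewise without overlap of the libraries and under 2-fold. Among 8 genes of the TGF-beta pathway around Klf10 and Klf11, Tgfbr1, a receptor chain, rose by 1.42 in control and 1.20 in Cd offspring. Smad7, the inhibitory Smad, fell by 1.09 in control offspring (adjusted p = 2.93e-05) and was not called in Cd offspring at -0.86 (adjusted p = 1.04e-04), and this difference between exposures did not pass its own test (adjusted p = 0.551).

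Among genes tied to a member in lymphocytes, 3 were lower and 2 higher in both exposures. S1pr1, the egress receptor driven by Klf2, was at 236 and 232 RPKM in unstimulated and 82.9 and 86.2 RPKM in stimulated control libraries, and fell by 1.47 on the log2 scale (adjusted p = 5.20e-07). Itgb7, an integrin chain of gut homing, was at 271 and 261 against 69.0 and 74.5 RPKM and fell by 1.89 (adjusted p = 7.74e-07).

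Ccl5, the chemokine gene tied to Klf13, fell by 2.87 in control offspring (adjusted p = 0.00108), with replicates far apart at 20.4 and 36.7 RPKM without and 2.54 and 5.22 RPKM with stimulation. The genes higher after stimulation were Myc, which Klf2 and Klf4 are known to restrain, and Cdkn1a, a cell cycle inhibitor known as a target of several family members. Myc was at 35.9 and 32.3 against 198 and 187 RPKM (log2 fold change 2.49, adjusted p = 1.44e-06). Cdkn1a was at 0.521 and 0.454 against 18.9 and 21.4 RPKM (5.10, adjusted p = 3.05e-06). Relations between these genes and the members were not tested.

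**Figure D3:**
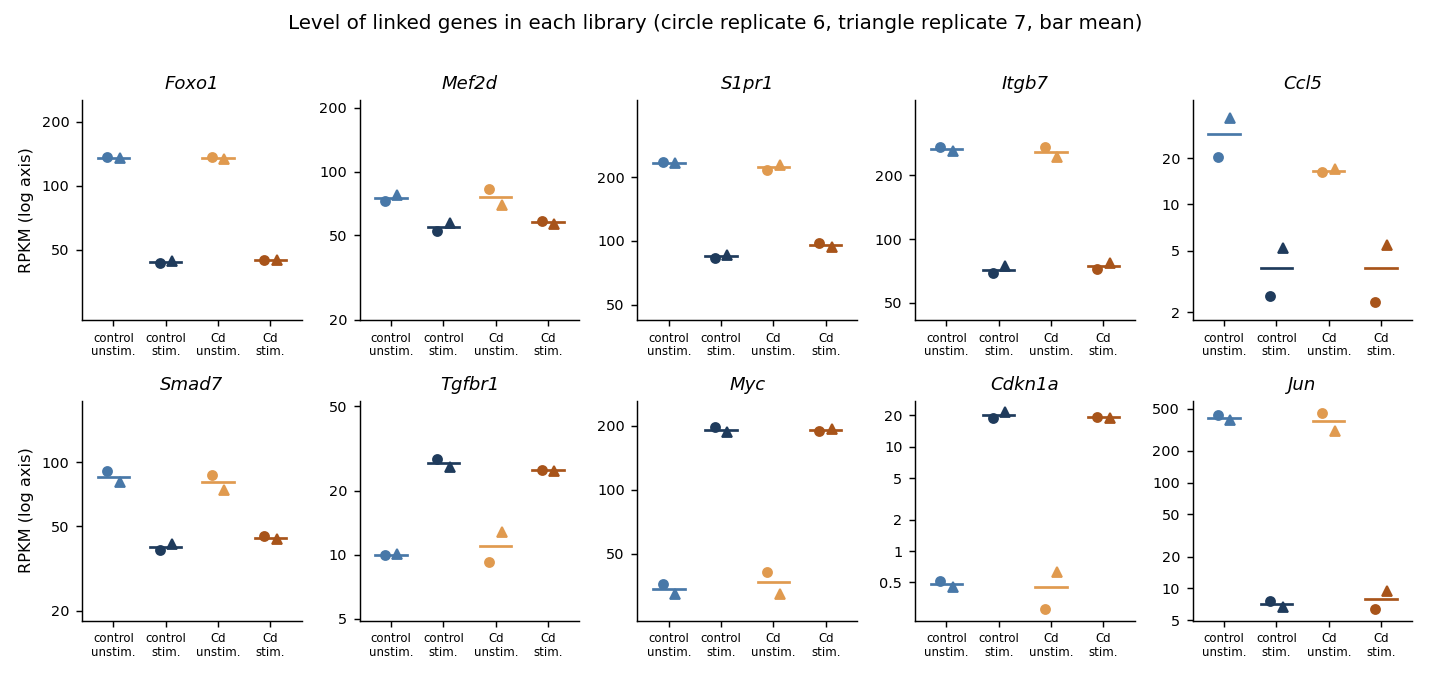
RPKM (log axis, a separate range for each panel) of genes upstream of, downstream of or otherwise tied to the family, and of Jun, in the 8 libraries, with a circle for replicate 6, a triangle for replicate 7 and a bar for the mean of each group. Foxo1, S1pr1, Itgb7, Ccl5 and Jun are lower in the stimulated libraries, Tgfbr1, Myc and Cdkn1a are higher, and Smad7 and Mef2d have log2 fold changes of -1.09 and -0.44 in control offspring.

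Profiles over the 8 libraries were compared by the root mean square difference of log2(RPKM + 0.1), each gene centred on its own mean. Between members the smallest difference was that of Klf3 and Klf13 (0.112), followed by Klf2 with Klf3 (0.177) and Klf2 with Klf11 (0.185). Klf4 differed from every other member by at least 2.08. Among about 8251 genes with a mean of at least 5 RPKM, the nearest to Klf4 were the immediate early genes Jun (0.476), Fos (0.575) and Fosb (0.600). Of the 12 immediate early genes, 7 were lower and 2 higher after stimulation in control offspring, and 6 lower and 3 higher in Cd offspring. Jun was at 433 and 389 RPKM in unstimulated and 7.63 and 6.68 RPKM in stimulated control libraries.

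The nearest to Klf2 were Paxx (0.102), Vps37b (0.105) and Rrad (0.117), and the nearest to Klf3 were Vipr1 (0.0313), Saraf (0.0354) and Sun2 (0.0371). Klf6 was closest to Acvrl1 (0.0873), Cited2 and Frat2, and Klf11 to Jund (0.0542), Peg13 and Prag1. Klf13 was closest to Ctsd (0.0438), Hectd3 and Rasa3, Klf10 to Maf1 (0.0431), Ap4b1 and Cd6, Klf7 to Ndufaf3, Xlr4c and Zfp956, and Klf9 to Fmc1 (0.0837), Klc2 and Bola1. These distances are descriptions over 8 libraries that share their stimulation groups.

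The comparison of Cd with control offspring asks whether parental exposure altered the level of these factors. In unstimulated cells 0 of the 9 genes were called at an adjusted p under 0.05 (limma), where 0.896% of all genes were, and Klf3 alone had an unadjusted p under 0.05, as did 13.9% of all genes. The estimates were below 0 for 8 of the 9, with a median of -0.14 against 0.01 over all genes. Klf2 had means of 317 ± 69.4 RPKM in Cd and 392 ± 19.7 RPKM in control offspring (SD, n = 2), and its libraries did not overlap. The log2 fold change of -0.32 had an interval of -0.66 to 0.02 (adjusted p = 0.381). Klf3 had -0.14 (-0.25 to -0.03, adjusted p = 0.284), Klf9 -0.40 (-0.85 to 0.06, adjusted p = 0.413) and Klf13 -0.09 (-0.24 to 0.05, adjusted p = 0.537), with libraries that did not overlap for these genes either. For the other 5 they overlapped. A lack of overlap in 4 of 9 members stands beside 42.3% of all genes. With 2 libraries against 2, an exact two-sided permutation test cannot go below p = 0.333.

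The 2 unstimulated Cd libraries differed from each other. Replicate 7 was lower than replicate 6 in all 9 tested members, with gaps of -0.09 (Klf3) to -0.47 (Klf9) on the log2 scale, where the median gap over all genes was -0.02. All 12 immediate early genes were also lower in replicate 7, with gaps of -0.676 to -0.015 on the log2 scale and a median of -0.50. The gaps were wide for Jun (458 and 308 RPKM) and Egr1 (113 and 70.7 RPKM), and narrow for Fos (570 and 531 RPKM), Fosb (199 and 197 RPKM) and Egr2 (7.66 and 7.55 RPKM). Their summed level was 3618 RPKM in replicate 6 and 2695 RPKM in replicate 7, against 3689 and 3487 RPKM in control offspring. Their part in the lower values of the family was not tested. Without replicate 7, Klf2 had a log2 fold change of -0.10 between Cd and control offspring, and Klf4, Klf6 and Klf11 had values above 0 (0.11, 0.03 and 0.03). Without it Klf3 was at -0.10. Without replicate 6 instead, the values were further below 0, at -0.546 for Klf2, -0.183 for Klf3, -0.265 for Klf4, -0.217 for Klf6 and -0.419 for Klf11. With 2 libraries it cannot be told which of them departs.

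In stimulated cells 0 of the 9 genes were called, and 0% of all genes were (414 of 12605, or 3.28%, had an unadjusted p under 0.05). The estimates were above 0 for 7 of the 9, with a median of 0.07 against -0.01 over all genes. Klf2 was at 136 ± 0.0892 RPKM in Cd and 119 ± 15.7 RPKM in control offspring, a log2 fold change of 0.20 (-0.14 to 0.54, adjusted p = 1). Klf3 was at 54.4 ± 1.77 and 49.3 ± 0.260 RPKM, a log2 fold change of 0.14 (0.03 to 0.25, adjusted p = 1). The libraries of Klf2, Klf3 and Klf11 did not overlap between exposures, and those of the other 6 did, where 36.7% of all genes did not overlap. The interval of Klf4 ran from -0.24 to 0.60 and rests on 10 to 25 reads a library.

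**Figure D4:**
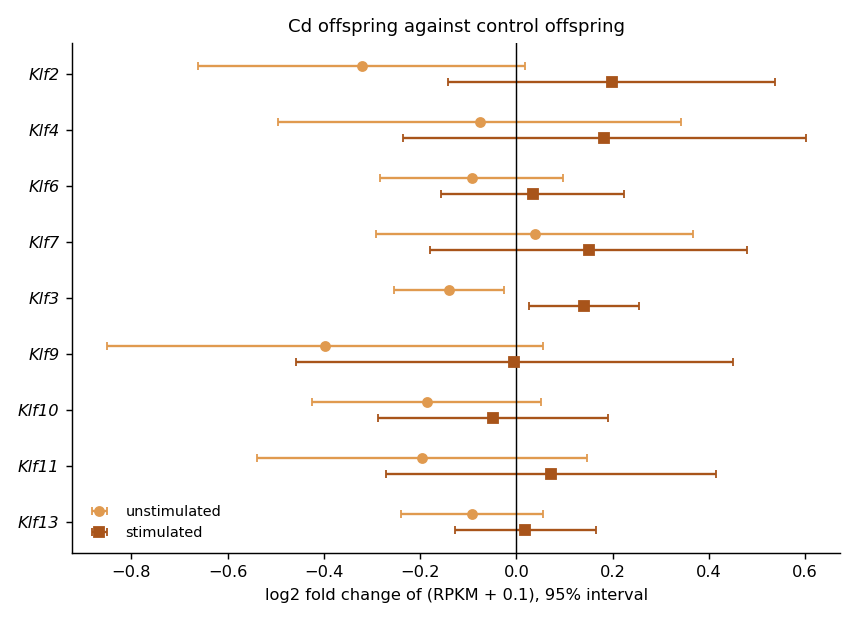
Log2 fold change of RPKM + 0.1 of Cd against control offspring for the 9 tested genes, with circles for unstimulated cells, squares for stimulated cells and 95% intervals from limma. In unstimulated cells 8 of the 9 points lie below 0 and in stimulated cells 7 lie above 0, and the intervals of all but Klf3 include 0.

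The difference in the response to stimulation, Cd minus control, was not called for any of the 9 genes, where 0.357% of all genes were. It was above 0 for all 9, which for the genes that fell corresponds to a smaller estimated fall in Cd offspring, with a median of 0.26 against -0.01 over all genes. Klf2 had 0.52 (SE 0.21, adjusted p = 0.440) and Klf3 0.28 (SE 0.069, adjusted p = 0.214), and these were the members with an unadjusted p under 0.05, which 10.6% of all genes had. Both were lower in Cd offspring without stimulation and higher with it, with no overlap of libraries in either state, a pattern of 9.88% of all genes. Klf9 had 0.39, Klf11 0.27, Klf4 0.26, Klf10 0.14, Klf6 0.13, Klf7 0.11 and Klf13 0.11, all with intervals that included 0. The 12 immediate early genes were also above 0 in all 12 cases, with a median of 0.35 and 0 called, and their part in these values was not tested. The 7 CD4 T cell markers were above 0 in all 7 cases too, with a median of 0.12. The further Klf and Sp genes were above 0 in 2 of 7 cases, with a median of -0.07. S1pr1 had 0.26 (0.10 to 0.42, adjusted p = 0.263) and Foxo1 0.04 (-0.10 to 0.17). The estimates share the unstimulated Cd libraries described above: without replicate 7 the value was 0.30 for Klf2 and 0.24 for Klf3.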

How the data were processed

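RNA sequencing libraries were prepared from polyadenylated RNA and sequenced as paired reads. Alignment (Subread, genome mm10) and counting over RefSeq transcripts (featureCounts) were done by the authors with versions that were not given in the sources used here. The deposited values are log2(RPKM + 1) with 0.0001 added, as tested on their steps, and whole reads were recovered for 17794 of 17794 genes above 0 in at least 2 libraries. Library depths (15542732 to 25486791 reads) come from these steps.

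Values were returned to RPKM, and log2(RPKM + 0.1) was fitted with limma (version 3.58.1, R 4.3.3) over 4 group means with a trended prior, for 12605 genes with a mean of at least 0.5 RPKM. Standard errors rest on 4 residual degrees of freedom before moderation. Benjamini-Hochberg adjustment covered all these genes. Stimulation was called at adjusted p under 0.01 and over 2-fold, Cd and the difference in response at adjusted p under 0.05. The fit was tested on simulated reads with the same scatter set for all genes and no effect of library or animal. That test cannot speak to differences between libraries of a group such as those described above. Alternatives were 10 other settings and each library left out.

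The members and gene lists were chosen with earlier results of these data known. All members are named, examples are named from each list, and the 3 nearest profiles are given for each tested member among genes of at least 5 RPKM. The number of libraries in a group, 2, limits the precision. No deposited column was left unused. Some genes of the lists are not reported here.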

Additional observations from a re-analysis of the deposited data

Results flagged for a closer look

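The estimates of Klf2 and Klf3 between exposures had opposite signs in the 2 states, with no overlap of libraries in either, and neither gene was called in either state. Of all 12605 genes tested, 1245 (9.88%) had such a pattern. In Cd offspring Klf2 was lower than in control offspring without stimulation (log2 fold change -0.32) and higher with it (0.20). The difference in response was 0.520 (adjusted p = 0.440, limma). Klf3 was likewise lower without stimulation (-0.14) and higher with it (0.14), and its difference in response was 0.281 (adjusted p = 0.214). Neither difference passed its test. Both share the unstimulated Cd libraries, of which replicate 7 was lower than replicate 6 in all 9 tested members.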

How the results depend on the processing

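The number of members called kept within 1.5 times of its value in every comparison under 10 other settings and with each library left out: 6 lower in control offspring, 4 to 6 lower in Cd offspring with a library left out, and 0 for Cd and for the difference in response. Libraries of the same number may come from the same animal, which the labels do not say. The differences between replicates 6 and 7 correlated between groups at -0.112 to 0.0635, which cannot show that the libraries are unpaired. Noise between 2 libraries could hide a pairing. A replicate block left 6 and 5 members lower and changed no call of a member. The count over all genes for the difference in response went from 45 to 25 with the block, 28 with no filter, 4 with no trend in the prior, 112 with voom on recovered reads, and 2 and 3 without replicate 7 of the stimulated Cd and replicate 6 of the stimulated control libraries. For Cd in unstimulated cells it went from 113 to 65 with no filter, 52 with only the libraries of the comparison, 14 with no trend, 211 with voom, and 19 to 105 with a library left out. For Cd in stimulated cells it was 0, with 9 with no filter, 2 with no trend and 0 to 3 with a library left out. The causes were not tested.

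Klf13 in Cd offspring passed the 2-fold limit with median-of-ratios scaling (-1.05) and quantile normalization (-1.08). Klf9 between exposures in stimulated cells turned from -0.004 to 0.00505 with median-of-ratios scaling and 0.00981 with voom. With a library left out, the following uncalled values changed sign. In unstimulated cells Cd against control ranged from -0.265 to 0.113 for Klf4, -0.217 to 0.0317 for Klf6, -0.101 to 0.178 for Klf7 and -0.419 to 0.0259 for Klf11. In stimulated cells it ranged from -0.00511 to 0.371 for Klf4, -0.0169 to 0.0845 for Klf6, -0.00877 to 0.309 for Klf7, -0.185 to 0.177 for Klf9 and -0.0437 to 0.0808 for Klf13. The difference in response of Klf7 ranged from -0.047 to 0.271. Depth limits Klf4 after stimulation (10 to 25 reads) and Klf12 (3 to 10 reads).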
